A study of Mus musculus with 10 samples.

Results

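LysoDCs of Peyer's patches were set against the monocytes of the blood, in cells of 2 single-cell datasets. A cell belonged to the comparison when it carried exactly 1 hashtag, an antibody with a DNA barcode that marks the sorted population, and when that hashtag stood for LysoDCs, Ly6C+ monocytes or CD43+ monocytes in the labels. It also needed at least 1000 UMIs (unique molecular identifiers, the counted molecules), at least 500 genes and at most 10% mitochondrial UMIs. This gave 6807 cells of the 14687 cells of all populations that met the same conditions, and of 24989 barcodes in all. They comprised 2714 LysoDCs, 931 Ly6C+ monocytes and 663 CD43+ monocytes in dataset 1, and 681, 866 and 952 in dataset 2. Every mouse was a female C57BL/6Rj, and the labels give no age. LysoDCs came from pools of 30 and 20 untreated mice, while monocytes came from pools of 20 and 18 mice bled 9 days after an intravenous dose of liposomes loaded with clodronate. The patches were digested with collagenase and DNase and enriched for CD11c+ cells before the sort, and the blood was not. Tissue, digestion, enrichment and clodronate therefore cannot be told apart from the cell type in any difference below. Dataset 1 was a single library tagged after the sort, with hashtags for follicular, immature, intermediate and mature LysoDCs. Dataset 2 was tagged before the sort, and its LysoDC hashtags do not give the subset.

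Peyer's patches are the lymphoid follicles of the small intestine, and LysoDCs are phagocytes of their dome that contain lysozyme and take up antigen and microbes that cross the epithelium. They derive from monocytes and share features of macrophages, such as MerTK, and of dendritic cells, such as high MHC class II. In blood, Ly6C+ monocytes are the short-lived cells that enter tissues and become phagocytes there, and CD43+ monocytes patrol the vessel wall.

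Transcripts of the hashtagged cells went with their labels for most listed markers, with the exceptions given here. Levels are in CPM (counts per 1000000 UMIs of a population's summed cells), dataset 1 first. Of 14 markers listed for LysoDCs, 13 were detected well enough to be tested. In LysoDCs 11 were higher than in the mean of both monocyte types, while Cx3cr1 was lower and Lyz2 did not pass. Mertk, Itgax, Sirpa and the class II genes among the 11 encode proteins stained for the sort. Sirpa lay at 339 and 417 CPM in LysoDCs, 216 and 201 in Ly6C+ and 344 and 447 in CD43+ monocytes. CD43+ monocytes were thus above LysoDCs for Sirpa in both datasets. Siglecf was nearly absent, at 0.0282 and 0 CPM in LysoDCs. Mertk, for the receptor of dying cells used in the LysoDC sort, stood at 45.5 and 50.9 CPM in LysoDCs, 2.18 and 2.31 in Ly6C+ and 2.91 and 1.54 in CD43+ monocytes. Of the 2 lysozyme genes, Lyz1 was higher in LysoDCs (values below), while Lyz2 lay at 35110.0 and 32547 CPM in LysoDCs, 43348 and 37734 in Ly6C+ and 14368 and 12737 in CD43+ monocytes, so that Ly6C+ monocytes were above LysoDCs in both datasets. The sequences of the 2 genes are similar, and counts of either can include reads of the other. The summed level of 14 CD43-high monocyte markers was 281 and 345 CPM in LysoDCs against 8210 and 9608 CPM in CD43+ monocytes. That of 14 Ly6C-high markers was 449 and 487 CPM in LysoDCs against 11609 and 13817 CPM in Ly6C+ monocytes. Single members departed from these sums. Of the Ly6C-high markers, S100a8 and S100a9 were rare in Ly6C+ monocytes, at 5.83 and 2.89 and at 0.485 and 0.192 CPM. Of the CD43-high markers, Treml4 was at 56.4 and 68.1 CPM in LysoDCs against 22.1 and 60.8 in Ly6C+ monocytes. Adgre4 was at 92.5 and 127 CPM against 41.5 and 74.8, and Dusp16 (below) was also above Ly6C+ monocytes.

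UMIs were added up per population and dataset, which gave 2 sums a population, each from 1 pool of mice. The LysoDC sums held 35505429 and 7326567 UMIs, those of Ly6C+ monocytes 4120083 and 5197974, and those of CD43+ monocytes 2409391 and 2596548. LysoDCs had a median of 13104 and 8999 UMIs a cell, Ly6C+ monocytes 4409 and 5920, and CD43+ monocytes 2963 and 2312. The matrices of both datasets shared 37 barcodes, 13 of them in cells of the 14687. In dataset 2, one of the 4 LysoDC hashtags marked only 4 of the 681 cells. A call that scales each hashtag to its background instead gave 715 cells with this hashtag and 2862 LysoDCs there. Fold changes are on the log2 scale with an approximate standard error (SE). With n = 2 pools a population, p-values measure the spread between these pools only. They come from edgeR's quasi-likelihood test with dataset as a block and are adjusted by the Benjamini-Hochberg method over 11458 tested genes.

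Of the tested genes, 57.3% differed between LysoDCs and the mean of both monocyte types. At an adjusted p under 0.05, 3425 genes were higher in LysoDCs (29.9% of those tested) and 3144 were lower (27.4%). Without TMM scaling, which moves the median of all genes by -0.19, the split became 2734 higher and 3984 lower. Of the called genes, 2081 were higher and 1566 lower by more than 1 on the log2 scale. Against Ly6C+ monocytes alone 2973 were higher (25.9%) and 2840 lower (24.8%), and against CD43+ monocytes alone 3258 were higher (28.4%) and 3034 lower (26.5%). These 3 comparisons share the LysoDC sums and are not independent. In CPM, which carry no TMM factor, both LysoDC sums lay above all 4 monocyte sums for 2649 genes (23.1%). They lay below all of them for 3559 (31.1%).

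The genes of the MHC class II pathway were mostly higher in LysoDCs. Of 18 tested genes of this pathway, 14 were higher and 1 was lower (2 without TMM scaling), beside 29.9% higher and 27.4% lower of all tested genes. The median difference was 2.16, against 0.01 over all tested genes. The count and the median include class II chains that were used to sort LysoDCs, and the difference of these chains is a check of the sort. H2-Aa, for the alpha chain of I-A, stood at 6883 and 7242 CPM in LysoDCs, 893 and 862 in Ly6C+ and 701 and 273 in CD43+ monocytes. Most tested genes of the pathway whose proteins were outside the sort were higher too. Ciita encodes the transactivator that switches the class II genes on, and lay at 112 and 145 CPM in LysoDCs, 67.0 and 60.2 in Ly6C+ and 21.2 and 15.02 in CD43+ monocytes, a difference of 2.09 ± 0.18 (adjusted p = 6.77e-06). H2-DMa, for a chain of the DM peptide exchange factor, was at 676 and 744 CPM in LysoDCs, 386 and 385 in Ly6C+ and 110.0 and 71.6 in CD43+ monocytes. Ciita differed by 1.08 from Ly6C+ and by 3.10 from CD43+ monocytes, and H2-DMa by 0.96 and 3.25. H2-DMb2, for a beta chain of DM, was at 239 and 225 CPM in LysoDCs, 13.3 and 4.62 in Ly6C+ and 17.4 and 6.16 in CD43+ monocytes and so was low in both monocyte types. Ifi30, a reductase that opens disulphide bonds of antigens in lysosomes, was higher by 2.22 ± 0.19, and H2-Eb2, a further beta chain, by 4.17 ± 0.35. H2-Oa, for a chain of the DO modulator of DM, was higher by 2.29 ± 0.48 at a low level of 13.5 and 12.1 CPM. Of the factors that bind class II promoters, Rfx5 was higher by 0.71 ± 0.18, while Rfxap and Rfxank stood at -0.30 ± 0.17 and -0.29 ± 0.20 and did not pass. Lgmn, for an endopeptidase of the class II pathway, was the 1 member that passed as lower, at 1.15 and 5.05 CPM in LysoDCs, 40.5 and 91.2 in Ly6C+ and 62.7 and 53.1 in CD43+ monocytes. Without the monocyte sums of dataset 1 it did not pass (-4.40, adjusted p = 0.103).

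Class II promoters are known for a Y box, an inverted CCAAT element close to the start. The string CTGATTGG (CCAATCAG on the other strand) was searched on both strands in the 150 bases before each RefSeq start (GRCm38.p6). RefSeq promoters were found for 13 of the 18 tested class II genes, 15 promoters in all. The string was in 4 of these promoters, each of another gene, against 3.16% of all 32851 promoters. A match describes letters only and is no measured site. The 4 promoters are shown because they hold the string, 5′ to 3′ on the gene's strand, with the string in capitals. Their genes were higher in LysoDCs, but so were H2-DMa, H2-DMb2 and Ifi30, whose promoters lacked the string. They lie on chromosome 17 at 34092229-34092378 (plus strand), 34287824-34287973 (minus), 34305717-34305866 (plus) and 34325525-34325674 (plus), in the order printed. The first base of the string lay 46, 51, 62 and 103 bases before the start.
H2-Oa: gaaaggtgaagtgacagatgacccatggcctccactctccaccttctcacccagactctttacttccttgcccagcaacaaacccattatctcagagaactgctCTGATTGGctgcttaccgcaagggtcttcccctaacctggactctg
H2-Aa: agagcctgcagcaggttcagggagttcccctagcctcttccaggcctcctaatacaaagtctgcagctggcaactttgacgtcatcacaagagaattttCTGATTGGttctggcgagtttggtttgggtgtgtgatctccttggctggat
H2-Eb1: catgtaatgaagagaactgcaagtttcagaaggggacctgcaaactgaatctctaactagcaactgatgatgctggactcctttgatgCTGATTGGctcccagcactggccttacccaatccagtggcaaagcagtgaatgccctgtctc
H2-Eb2: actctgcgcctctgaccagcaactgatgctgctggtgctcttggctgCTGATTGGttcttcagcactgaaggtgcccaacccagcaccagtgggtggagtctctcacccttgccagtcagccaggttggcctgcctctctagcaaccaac

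The genes with the largest excess over both monocyte types included genes of complement and of other secreted and lysosomal proteins. Mitochondrial, ribosomal protein, haemoglobin, immunoglobulin and predicted genes, genes of the sort gates and genes without a position were left out first. Among the rest, 644 genes were higher in all 3 comparisons, did not overlap and reached 50 CPM in both LysoDC sums. The 12 of these with the largest smaller difference were C1qc, C1qa, Adamdec1, Chst2, Socs2, Spon1, C1qb, Cd63, Rgs1, Lyz1, Il22ra2 and Gpm6b. The 3 chains of C1q, which starts the classical complement pathway, were among the most abundant. C1qa (ENSMUSG00000036887) was at 8726 and 7806 CPM in LysoDCs, 454 and 31.6 in Ly6C+ and 526 and 84.3 in CD43+ monocytes. It differed by 6.12 ± 0.87 (adjusted p = 0.00694), C1qb by 5.66 ± 0.61 and C1qc by 6.07 ± 0.70. Lyz1, for the lysozyme best known from Paneth cells, stood at 12668 and 12059 CPM in LysoDCs, 791 and 129 in Ly6C+ and 814 and 191 in CD43+ monocytes. The difference was 5.51 ± 0.63 (adjusted p = 0.00308), with the reservation about Lyz2 above. Part of the Lyz1 of Ly6C+ monocytes came from a few cells. In dataset 2, 8 of 866 Ly6C+ cells (0.924%) had 10 or more UMIs, up to 63, and together 38.7% of the population's Lyz1 UMIs. In dataset 1 it was 23 of 931 cells, up to 61 UMIs, with 13.4% of the UMIs. For C1qb, 4 of 866 Ly6C+ cells of dataset 2 (0.462%) had 10 or more UMIs, up to 25. They held 29.2% of the population's C1qb UMIs, against 0.9% in 1 of 931 cells of dataset 1.

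Other leading genes act outside the cell or on its signals. Il22ra2 encodes a soluble receptor that binds interleukin 22 and keeps it from its target cells. Its level was 3554 and 3239 CPM in LysoDCs, 152 and 42.7 in Ly6C+ and 212 and 47.0 in CD43+ monocytes, a difference of 5.53 ± 0.47 (adjusted p = 0.000637). Adamdec1, for a protease secreted by gut macrophages, was at 1024 and 929.8 CPM in LysoDCs, 37.6 and 8.46 in Ly6C+ and 41.9 and 14.6 in CD43+ monocytes. Spon1, for the matrix protein spondin 1, had 2862 and 718 UMIs in LysoDCs, 12 and 6 in Ly6C+ and 6 and 3 in CD43+ monocytes. It had the smallest SE of the 12 genes (5.77 ± 0.32, adjusted p = 2.5e-06). Cd63, for a tetraspanin of late endosomes, was at 2329 and 2341 CPM in LysoDCs, 145 and 12.5 in Ly6C+ and 182 and 29.7 in CD43+ monocytes. Socs2 restrains signalling by growth hormone and cytokine receptors, and had 73.3 and 77.5 CPM in LysoDCs against 15, 0, 7 and 3 UMIs in all in the monocyte sums. Rgs1, a brake on chemokine receptors, was higher by 5.54 ± 0.49, Chst2, a sulphotransferase, by 5.68 ± 0.58, and Gpm6b, for a membrane protein of the proteolipid family, by 5.62 ± 0.69. Both LysoDC sums lay above all monocyte sums for each of the 12, as the rule required.

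**Figure D1:**
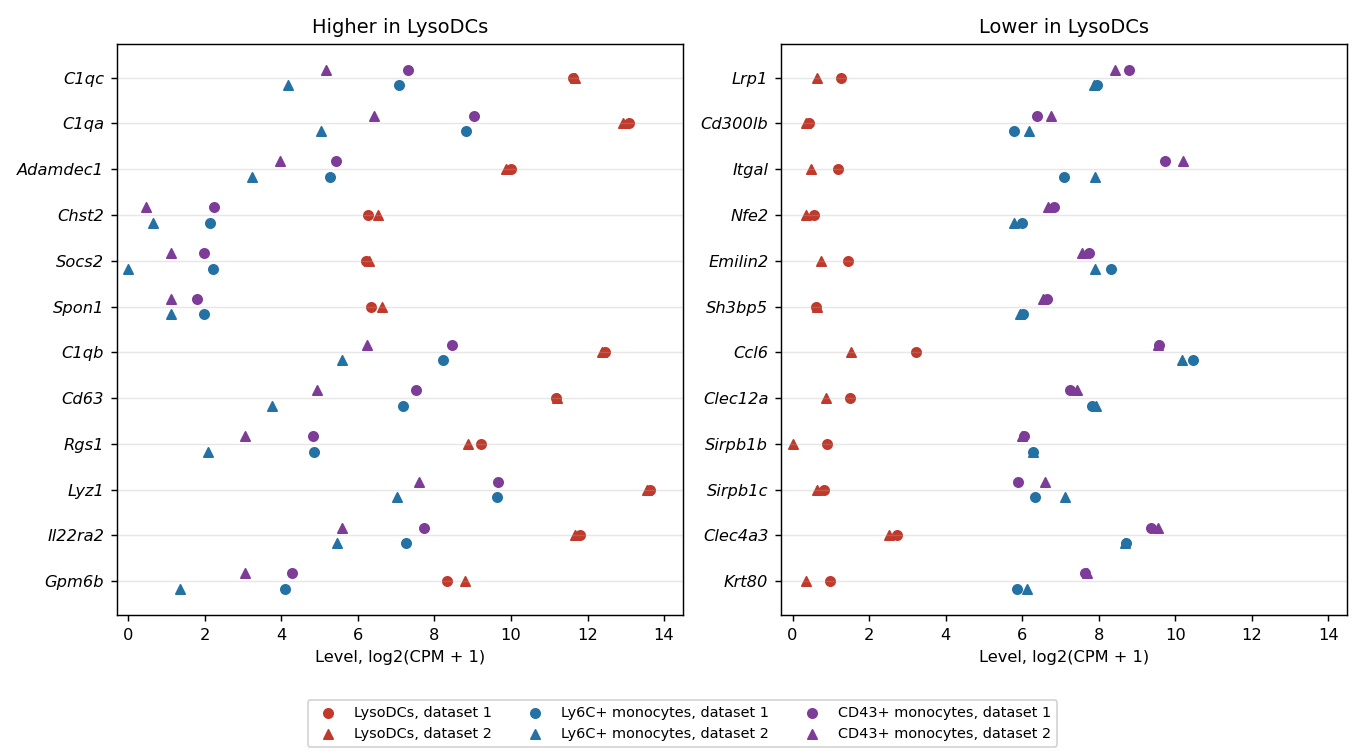
Level of the 24 named genes in each sum, as log2(CPM + 1) on the horizontal axis. Circles are dataset 1 and triangles dataset 2, red LysoDCs, blue Ly6C+ monocytes and violet CD43+ monocytes. In the left panel the monocyte circles lie to the right of the monocyte triangles for all 12 genes. In the right panel the LysoDC points lie far to the left of all monocyte points.

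The monocyte level of these 12 genes depended on the dataset. In dataset 1 it was 3.61% to 6.25% of the LysoDC level in Ly6C+ monocytes (median 4.80%) and 3.09% to 7.81% in CD43+ monocytes (median 5.34%). In dataset 2 it was 0% to 1.32% (median 0.664%) and 0.422% to 1.63% (median 1.43%). In dataset 2 the labels place each monocyte type in a library of its own, with 1 LysoDC subset, and in dataset 1 all cells shared a library. Among single cells of dataset 1, 85.7% of Ly6C+ and 83.1% of CD43+ monocytes had a UMI of C1qa, with a median of 2 and no cell above 8, whereas LysoDCs had a median of 116 UMIs. In dataset 2 the shares were 15.1% and 20.0%, and LysoDCs had a median of 73. After thinning each cell to 1500 UMIs, the shares with C1qa were 48.7% and 57.1% of monocytes in dataset 1, 5.09% and 11.5% in dataset 2, and 97.8% and 97.9% of LysoDCs. This left out 33 and 11 LysoDCs, 16 and 1 Ly6C+ and 22 and 124 CD43+ monocytes with fewer UMIs. The monocyte shares depended on that depth, and at 1000 UMIs a cell were 40.3% of Ly6C+ and 45.7% of CD43+ monocytes in dataset 1 and 3.46% and 10.1% in dataset 2, with LysoDCs at 97.9% and 97.5%. The part of free RNA in the dataset 1 monocyte levels was not tested. Without the monocyte sums of dataset 1, a fit added after seeing the data, the 12 differences ran from 5.89 to 9.41, and 7 of the 12 passed. C1qa, Chst2, Socs2, Cd63 and Gpm6b did not, with adjusted p of 0.0541 to 0.153. When both monocyte types were added into 1 sum per dataset, 6 of the 12 passed. All 3 C1q chains lost their call in that fit, C1qa with an adjusted p of 0.139, C1qb with 0.0622 and C1qc with 0.0889. So did Cd63 (0.15), Gpm6b (0.084) and Lyz1 (0.0563), while the 12 differences stayed between 5.34 and 5.94. C1qa did not pass without CD43+ replicate 1 (adjusted p = 0.0502) or replicate 2 (0.0547), nor Cd63 without Ly6C+ replicate 2 (0.0539) or CD43+ replicate 2 (0.0547). Those were edgeR fits with 1 sum left out.

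**Figure D2:**
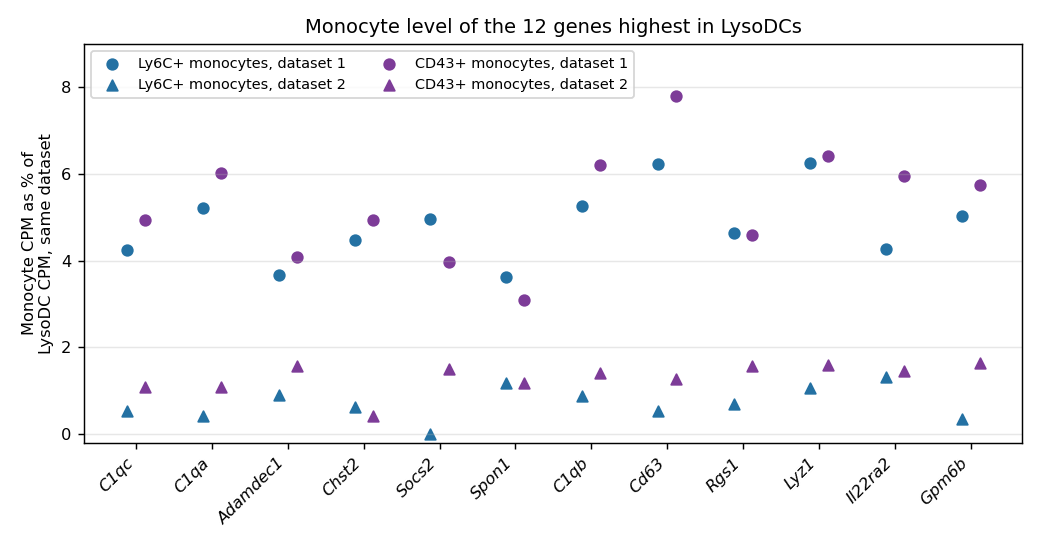
Monocyte CPM as a percentage of the LysoDC CPM of the same dataset (vertical axis). The 12 genes are those named for the largest excess over both monocyte types. Circles are dataset 1 and triangles dataset 2, blue Ly6C+ and violet CD43+ monocytes. All circles lie between 3.09% and 7.81%, and all triangles at or below 1.63%.

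The genes with the largest deficit against both monocyte types stood at 8.39 CPM or less in LysoDCs. Among 590 genes that met the mirrored conditions, with the same genes left out, the 12 with the largest smaller difference were Lrp1, Cd300lb, Itgal, Nfe2, Emilin2, Sh3bp5, Ccl6, Clec12a, Sirpb1b, Sirpb1c, Clec4a3 and Krt80. Lrp1, for a large endocytic receptor of lipoproteins and protease complexes, stood at 1.41 and 0.546 CPM in LysoDCs, 247 and 235 in Ly6C+ and 442 and 342 in CD43+ monocytes. The difference was -7.90 ± 0.30 (adjusted p = 6.57e-08). Itgal, for the alpha chain of LFA-1 that binds ICAM proteins on the vessel wall, was at 1.27 and 0.409 CPM in LysoDCs, 135 and 239.7 in Ly6C+ and 857 and 1182 in CD43+ monocytes. CD43+ monocytes were thus the highest, and the differences were -7.25 against Ly6C+ and -9.49 against CD43+ monocytes. Ccl6, a chemokine gene, lay at 8.39 and 1.91 CPM in LysoDCs, 1402 and 1154 in Ly6C+ and 766 and 749.8 in CD43+ monocytes, highest in Ly6C+ monocytes. A UMI of Ccl6 was found in 6.08% and 1.76% of LysoDCs, against 95.6% and 98.2% of Ly6C+ and 80.8% and 74.9% of CD43+ monocytes. At 1500 UMIs a cell the shares were 1.64% and 0.299%, 81.0% and 76.2%, and 61.5% and 61.6%. At 1000 UMIs they were 1.18% and 0% (0 of 681 cells, 95% exact binomial upper bound 0.54%), 72.1% and 64.8%, and 49.2% and 49.5%.

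This group included several receptors of the myeloid surface. Clec12a, for an inhibitory lectin receptor of uric acid crystals, was at 1.83 and 0.819 CPM in LysoDCs, 227 and 241.1 in Ly6C+ and 151 and 171 in CD43+ monocytes. Clec4a3, of the DCIR family, was at 5.69 and 4.78 CPM in LysoDCs, 416 and 411 in Ly6C+ and 659.5 and 749 in CD43+ monocytes and had the smallest SE of the 12 (-6.46 ± 0.21, adjusted p = 1.88e-08). Cd300lb encodes an activating receptor and was lower (-7.60 ± 0.35). Sirpb1b and Sirpb1c, with -6.53 ± 0.46 and -6.63 ± 0.39, are near-identical copies whose reads cannot be told apart with certainty. Nfe2, a transcription factor of the platelet and red cell lineages, was at 0.479 and 0.273 CPM in LysoDCs, 62.6 and 54.4 in Ly6C+ and 113 and 100.5 in CD43+ monocytes. Emilin2, for a matrix protein, differed by -7.24 ± 0.27, Sh3bp5 by -7.07 ± 0.46 and the keratin gene Krt80 by -6.84 ± 0.30. All 12 passed in each of the alternatives run, including the fit without the dataset 1 monocytes, where they ran from -9.14 to -6.74.

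**Figure D3:**
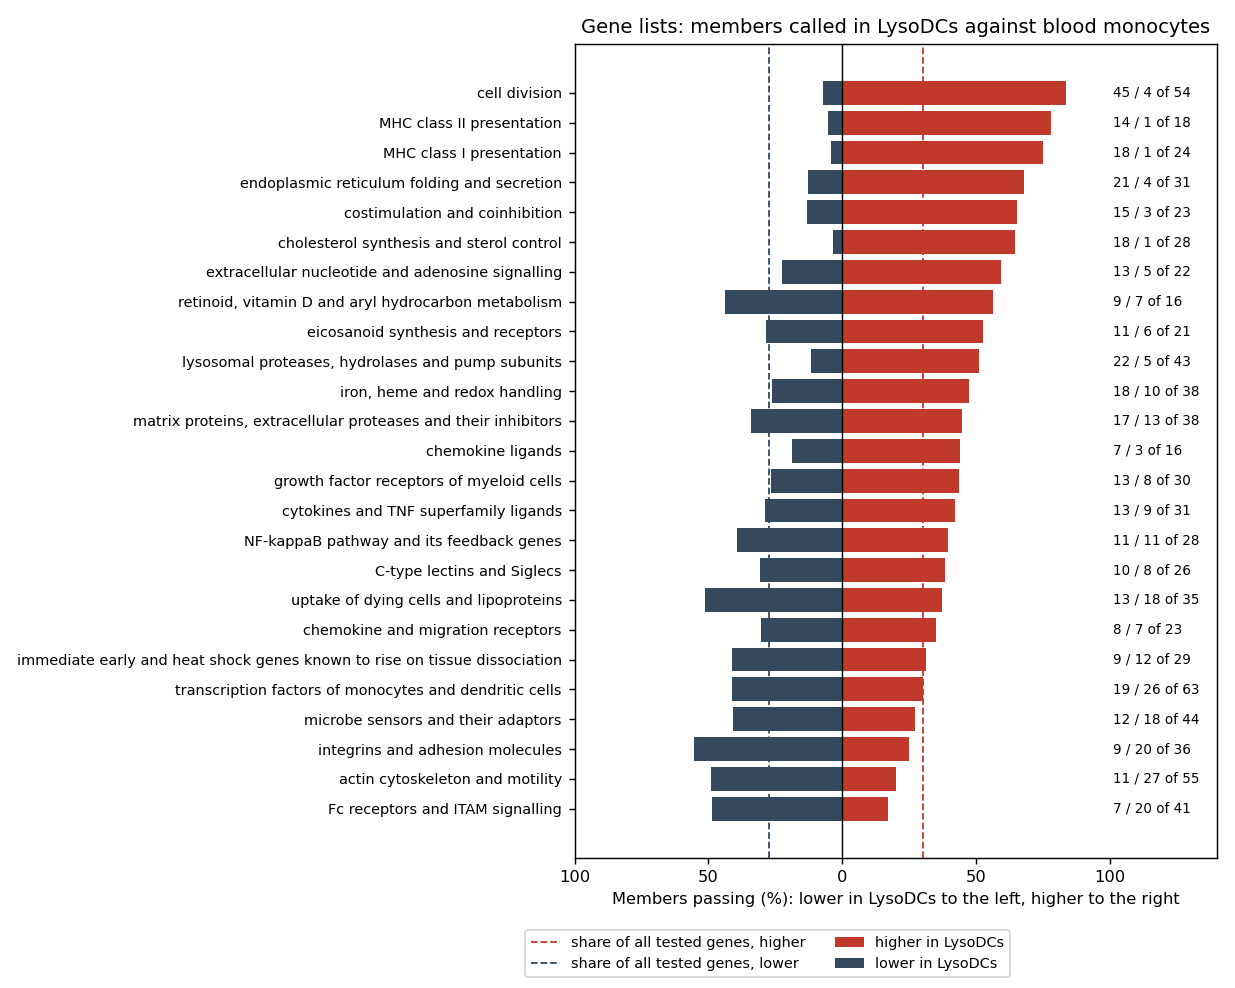
Share of the tested members of 25 gene lists (vertical axis) that passed in LysoDCs against blood monocytes, with lower members to the left and higher to the right, in percent. Dashed lines give the shares over all tested genes, 27.4% and 29.9%, and the numbers at the right are higher and lower members of those tested. Cell division and both presentation lists reach farthest to the right, and integrins, uptake and the actin cytoskeleton farthest to the left.

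Among transcription factors of monocytes and dendritic cells, calls went both ways. Of 63 tested, 26 were lower and 19 higher (median -0.30), beside 27.4% lower and 29.9% higher of all tested genes. The same shares stand beside every list count below. Klf4, known for its part in monocyte development, stood at 4.37 and 2.87 CPM in LysoDCs, 172 and 185 in Ly6C+ and 468 and 521 in CD43+ monocytes, and Bcl6, a repressor, at 0.929 and 1.77 CPM in LysoDCs, 26.9 and 33.9 in Ly6C+ and 149 and 220.3 in CD43+ monocytes. Pou2f2 was at 19.8 and 18.7 CPM in LysoDCs, 366 and 446 in Ly6C+ and 1746 and 1995 in CD43+ monocytes, and Hhex was lower (-4.23 ± 0.16). For Klf4, Bcl6 and Pou2f2 the order was LysoDCs, Ly6C+ and then CD43+ monocytes in both datasets. Higher factors included Nr1h3, for the sterol receptor LXR alpha, at 399 and 326 CPM in LysoDCs, 39.6 and 19.6 in Ly6C+ and 93.0 and 70.5 in CD43+ monocytes, and Runx3, at 339.9 and 476 CPM in LysoDCs, 64.8 and 46.2 in Ly6C+ and 49.0 and 35.8 in CD43+ monocytes. Cebpa was higher by 1.87 ± 0.16, with 0.75 against Ly6C+ and 3.00 against CD43+ monocytes. Etv3 was higher by 1.46 ± 0.12. Spi1, for the myeloid factor PU.1, was at 636 and 526 CPM in LysoDCs, 674 and 635 in Ly6C+ and 1089 and 919 in CD43+ monocytes, overlapped between the groups and did not pass (-0.30 ± 0.13).

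Of 28 NF-kappaB genes 11 were higher and 11 lower, beside 29.9% and 27.4% of all tested genes, and the subunits divided by branch. Relb and Nfkb2, subunits of the alternative branch, were higher, and Nfkb1, Rel and Rela, subunits of the classical branch, were lower. Relb was at 219 and 212 CPM in LysoDCs, 44.2 and 44.2 in Ly6C+ and 61.0 and 50.8 in CD43+ monocytes and Nfkb1 at 32.3 and 38.8 CPM in LysoDCs, 132 and 139 in Ly6C+ and 218 and 200.3 in CD43+ monocytes. Their differences were 2.30 ± 0.12 (adjusted p = 9.46e-08) and -2.07 ± 0.14 (adjusted p = 5.62e-07), and Nfkb2 differed by 0.80 ± 0.13, Rel by -1.23 ± 0.12 and Rela by -0.84 ± 0.11. Map3k14, for the kinase NIK that starts the alternative branch, was lower (-1.98 ± 0.16), while Traf3 and Birc2, whose products hold NIK in check, were higher by 1.06 ± 0.13 and 2.22 ± 0.17. Nfkbie, an inhibitor, was higher by 1.07 ± 0.11 and Ikbkb, a kinase of the classical branch, lower (-1.16 ± 0.12). Without TMM scaling the list was 9 higher and 11 lower.

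Receptors for growth factors and cytokines went both ways, with 13 of 30 higher and 8 lower, beside 29.9% and 27.4% of all tested genes. Csf2rb, the shared chain of the GM-CSF receptor, stood at 361 and 337 CPM in LysoDCs, 148 and 159 in Ly6C+ and 156 and 169 in CD43+ monocytes and Il4ra at 81.8 and 71.2 CPM in LysoDCs, 34.7 and 27.9 in Ly6C+ and 41.1 and 31.6 in CD43+ monocytes. Il21r was at 54.0 and 43.1 CPM in LysoDCs, 6.55 and 3.66 in Ly6C+ and 17.4 and 19.3 in CD43+ monocytes, and Tgfbr1, a TGF-beta receptor, was higher by 2.33 against Ly6C+ and 0.75 against CD43+ monocytes. Receptors for interleukin 6, interleukin 13 and TNF were lower, with Il6ra at 57.0 and 78.1 CPM in LysoDCs, 266 and 251 in Ly6C+ and 280.2 and 391 in CD43+ monocytes, Il13ra1 lower (-2.10 ± 0.13) and Tnfrsf1a likewise (-1.60 ± 0.13). Acvrl1 was highest in Ly6C+ monocytes, at 3.01 and 3.14 CPM in LysoDCs, 44.2 and 34.6 in Ly6C+ and 9.55 and 5.01 in CD43+ monocytes.

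Chemokine and migration receptors were 8 higher and 7 lower of 23 tested, beside 29.9% higher and 27.4% lower of all tested genes. Ccr1, for a receptor of inflammatory CC chemokines, stood at 235 and 264 CPM in LysoDCs, 27.7 and 18.9 in Ly6C+ and 14.53 and 4.24 in CD43+ monocytes, with both LysoDC sums above all monocyte sums. Ccr6, the receptor of the CCL20 made by the epithelium over the follicle, had 325 and 51 UMIs in LysoDCs. In monocytes it had 2 and 0 UMIs in Ly6C+ and none in CD43+ cells, and the LysoDC level was at least 14.7-fold higher than in the latter, counted against a floor of 3 UMIs over both sums. S1pr2, known for confining B cells to germinal centres, was higher by 1.51 ± 0.15, whereas S1pr4 was lower (-4.64 ± 0.33) with 19 and 1 UMIs left in LysoDCs. Gpr35 stood at 1.89 and 1.77 CPM in LysoDCs, 73.3 and 58.9 in Ly6C+ and 122 and 131 in CD43+ monocytes and Gpr132 was lower (-1.83 ± 0.13). Cxcr4, at 3.91 and 9.69 CPM in LysoDCs, 8.98 and 21.9 in Ly6C+ and 33.2 and 85.9 in CD43+ monocytes, was lower within each dataset although the ranges of the datasets overlapped (-1.97 ± 0.16). It did not pass without the dataset block (-2.13, adjusted p = 0.0505, the highest over its alternatives). Ccr2, which brings monocytes into tissue, did not pass against the mean of both types. Its 233 and 284 CPM in LysoDCs lay between 1338 and 1241 CPM in Ly6C+ and 86.3 and 48.1 CPM in CD43+ monocytes.

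Among chemokines, 7 of 16 were higher and 3 lower, beside 29.9% and 27.4% of all tested genes. Cxcl16, a membrane-bound chemokine that also takes up oxidised lipid, was the most abundant of the higher ones, at 352 and 349 CPM in LysoDCs, 32.0 and 23.1 in Ly6C+ and 30.7 and 11.6 in CD43+ monocytes. Cxcl9, known as a target of interferon gamma, lay at 25.1 and 25.8 CPM in LysoDCs, 1.94 and 1.35 in Ly6C+ and 1.66 and 0 in CD43+ monocytes, and Cxcl2 was higher by 3.71 ± 0.47. Cxcl14 had 352 and 56 UMIs in LysoDCs, 23.8 times the level of CD43+ monocytes, which held 2 UMIs (95% counting interval 6.56 to 198). The lower chemokines were Ccl6 (above), Ccl9, at 4.17 and 0.682 CPM in LysoDCs, 499.7 and 532 in Ly6C+ and 128 and 247 in CD43+ monocytes, and Ccl3. Ccl9 did not pass without the dataset 1 monocytes (-7.14, adjusted p = 0.0676). Ccl3 was low throughout, at 1.80 and 1.23 CPM in LysoDCs, 5.58 and 1.54 in Ly6C+ and 4.98 and 2.31 in CD43+ monocytes, and its difference of -1.05 ± 0.37 did not pass in several alternatives, with adjusted p up to 0.508.

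Cytokines were 13 higher and 9 lower of 31, beside 29.9% higher and 27.4% lower of all tested genes. Il12b encodes the shared p40 chain of interleukins 12 and 23. It had 27.4 and 23.5 CPM in LysoDCs, against 3 and 2 UMIs in Ly6C+ monocytes and none in CD43+ monocytes, a level at least 44.6-fold higher than in the latter. Other partners of that family were lower, since Ebi3 stood at 2.11 and 1.77 CPM in LysoDCs, 46.4 and 36.4 in Ly6C+ and 71.0 and 80.5 in CD43+ monocytes and Il27 had 8 and 0 UMIs in LysoDCs against 22 and 31 in Ly6C+ and 30 and 17 in CD43+ monocytes. Tnf was lower (-1.84 ± 0.21), at 3.58 and 3.41 CPM in LysoDCs, 7.28 and 9.23 in Ly6C+ and 24.9 and 28.9 in CD43+ monocytes, and Tnfsf14, for LIGHT, was lower too (-4.73 ± 0.53). Il18bp, a secreted binder of interleukin 18, was at 159.7 and 146 CPM in LysoDCs, 13.8 and 4.62 in Ly6C+ and 8.30 and 4.24 in CD43+ monocytes, and Mif at 605 and 511 CPM in LysoDCs, 104 and 70.2 in Ly6C+ and 100.025 and 52.8 in CD43+ monocytes. Hbegf, a growth factor for epithelium, was higher by 4.99 ± 0.53 from 15.4 and 23.1 CPM. Without TMM scaling the list was 11 higher and 11 lower.

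Adhesion and actin genes held many lower members, beside 27.4% of all tested genes. Of 36 integrin and adhesion genes 20 were lower and 9 higher (median -1.17), and of 55 actin and motility genes 27 were lower and 11 higher (median -0.37). Itga4, for the alpha chain of VLA-4, stood at 26.5 and 21.3 CPM in LysoDCs, 513 and 459 in Ly6C+ and 1107 and 1398 in CD43+ monocytes, and Itgb7, its gut homing partner, at 5.69 and 2.32 CPM in LysoDCs, 254 and 177 in Ly6C+ and 135 and 104 in CD43+ monocytes. Adgre5 was lower (-3.76 ± 0.18) and so was Icam2 (-4.74 ± 0.23). On the actin side Lsp1 was at 40.2 and 24.0 CPM in LysoDCs, 1241 and 957 in Ly6C+ and 1473 and 1224 in CD43+ monocytes and the GTPase gene Rac2 at 31.2 and 21.2 CPM in LysoDCs, 425 and 358 in Ly6C+ and 498 and 516 in CD43+ monocytes. Fmnl1, a formin, was lower (-3.03 ± 0.14), whereas its relative Fmnl2 was higher by 3.83 ± 0.34, at 85.8 and 81.2 CPM in LysoDCs, 6.31 and 1.35 in Ly6C+ and 9.55 and 15.02 in CD43+ monocytes. Coro2a was lower (-3.75 ± 0.24). Higher members included Icam1, at 152 and 187 CPM in LysoDCs, 60.7 and 72.9 in Ly6C+ and 43.6 and 45.1 in CD43+ monocytes, Itga9 by 5.19 ± 0.38, Jaml by 2.37 ± 0.27 and Gsn, for the filament-severing protein gelsolin, by 1.98 ± 0.14. Swap70 and Rhob were higher by 1.17 ± 0.13 and 0.92 ± 0.10. Cd82 differed by 2.56 against Ly6C+ and -0.76 against CD43+ monocytes.

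Matrix proteins and extracellular proteases were 17 higher and 13 lower of 38, beside 29.9% higher and 27.4% lower of all tested genes. Tgfbi stood at 809 and 856 CPM in LysoDCs, 494 and 439 in Ly6C+ and 219 and 211 in CD43+ monocytes and Emilin1 at 50.4 and 61.0 CPM in LysoDCs, 18.4 and 17.1 in Ly6C+ and 23.2 and 26.2 in CD43+ monocytes. Emilin1 and Emilin2, which encode related proteins, thus went in opposite directions. Serpinb9, an inhibitor of granzyme B, was higher by 3.31 ± 0.23. Cst3, for the cathepsin inhibitor cystatin C, was lower at 635 and 609.7 CPM in LysoDCs, 3167 and 2898 in Ly6C+ and 6979.8 and 6628 in CD43+ monocytes, as was Lgals1, for galectin 1, at 28.5 and 33.4 CPM in LysoDCs, 428 and 429 in Ly6C+ and 110.4 and 85.5 in CD43+ monocytes. Adam15 was lower (-2.40 ± 0.17).

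Microbe sensors and their adaptors were 18 lower and 12 higher of 44, beside 27.4% lower and 29.9% higher of all tested genes. Tlr1 and Tlr5, receptors of bacterial lipoproteins and flagellin, were higher by 2.23 ± 0.18 and 2.63 ± 0.36. Tlr5 was rare, at 9.27 and 8.87 CPM in LysoDCs, 2.43 and 2.89 in Ly6C+ and 0.830 and 1.16 in CD43+ monocytes. Irak2, a kinase of Toll-like receptor signalling, was higher at 124 and 106 CPM in LysoDCs, 37.9 and 21.7 in Ly6C+ and 36.9 and 28.9 in CD43+ monocytes, and Irak3, which inhibits that signalling, lower at 2.06 and 1.36 CPM in LysoDCs, 43.7 and 35.0 in Ly6C+ and 79.7 and 98.6 in CD43+ monocytes. Tirap, an adaptor, was lower (-4.45 ± 0.22) and so was Cd180, a relative of the Toll-like receptors (-3.75 ± 0.21). Tmem173, for STING, was higher at 161 and 164 CPM in LysoDCs, 77.7 and 62.9 in Ly6C+ and 36.1 and 25.8 in CD43+ monocytes, and Gsdmd, for the pore protein gasdermin D, lower at 31.2 and 29.2 CPM in LysoDCs, 105 and 77.0 in Ly6C+ and 108 and 80.9 in CD43+ monocytes. Without TMM scaling, 7 were higher and 20 lower.

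Lectins were 10 higher and 8 lower of 26, beside 29.9% higher and 27.4% lower of all tested genes. Fc receptor and ITAM genes were 20 lower and 7 higher of 41 (median -0.58). Cd33 was at 185 and 235 CPM in LysoDCs, 34.2 and 35.2 in Ly6C+ and 13.7 and 7.32 in CD43+ monocytes. Clec4a4 had 417 and 82 UMIs in LysoDCs, 19.4 times the level of CD43+ monocytes, which held 3 UMIs (95% counting interval 6.61 to 94.6), while its neighbours Clec4a1, Clec4a3 and Clec4b1 were lower, Clec4a1 at 24.3 and 15.6 CPM in LysoDCs, 275 and 274 in Ly6C+ and 479.8 and 619 in CD43+ monocytes, and Clec4b1 by less (-1.99 ± 0.27). These genes have similar sequences, and shared reads could blur them. Lgals9, for galectin 9, was higher by 2.48 ± 0.20. Fcgrt, for the neonatal Fc receptor, was lower at 1.44 and 1.36 CPM in LysoDCs, 55.8 and 48.7 in Ly6C+ and 108 and 84.3 in CD43+ monocytes. Cd300ld and Cd300a were lower (-3.08 ± 0.17 and -3.28 ± 0.21), as was Lilra6 (-3.70 ± 0.19), whereas Cd300lf was higher at 96.3 and 97.7 CPM in LysoDCs, 20.6 and 11.4 in Ly6C+ and 19.9 and 9.24 in CD43+ monocytes. Slamf8 and Slamf7 were higher by 1.86 ± 0.15 and 1.60 ± 0.29. Without LysoDC replicate 1, 3 of the 41 Fc and ITAM genes were higher and 5 lectins were lower, and Slamf7 did not pass (1.62, adjusted p = 0.0511). Without LysoDC replicate 2, 4 Fc and ITAM genes were higher, and 11 in the fit without CD115hi Ly6C-CD43- blood cells.

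Siglech was, among these 3 populations, detected in LysoDCs only, with 138 and 78 UMIs against none in any monocyte sum, a level at least 15.7-fold higher than in Ly6C+ and at least 8.42-fold higher than in CD43+ monocytes. It is a marker of plasmacytoid dendritic cells, as is Ccr9, at 156 and 158 CPM in LysoDCs, 6.55 and 3.08 in Ly6C+ and 10.4 and 1.54 in CD43+ monocytes. The summed level of 8 plasmacytoid markers was 1268 and 1162 CPM in LysoDCs and 148 to 442 CPM in the monocyte sums, and Bst2 supplied most of it, at 1038 and 909.8 CPM. Of the 5 tested, 3 were higher, and Tcf4, which defines these cells, did not pass, at 56.3 and 82.3 CPM in LysoDCs, 80.3 and 99.7 in Ly6C+ and 58.5 and 88.6 in CD43+ monocytes. The part of such cells in the LysoDC sums was not tested.

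Costimulation and coinhibition genes were 15 higher and 3 lower of 23 (median 1.46). The lower ones numbered 5 without TMM scaling, and 5 with both monocyte types in 1 sum. Cd80 stood at 22.3 and 25.7 CPM in LysoDCs, 8.01 and 6.54 in Ly6C+ and 2.91 and 2.70 in CD43+ monocytes and Cd86 at 47.3 and 49.8 CPM in LysoDCs, 25.97 and 22.3 in Ly6C+ and 22.8 and 14.6 in CD43+ monocytes. Both encode ligands of CD28. Nectin2, a ligand of the receptors DNAM-1 and TIGIT, was at 103 and 105 CPM in LysoDCs, 4.13 and 1.92 in Ly6C+ and 9.13 and 2.70 in CD43+ monocytes, and Il4i1, for an amino acid oxidase that curbs T cells, at 437 and 351 CPM in LysoDCs, 20.9 and 3.27 in Ly6C+ and 39.8 and 17.7 in CD43+ monocytes. Cd274, for PD-L1, was higher than in Ly6C+ monocytes (3.26) and overlapped with CD43+ monocytes (-0.28). Socs1 was higher by 2.27 ± 0.24. The lower members were Icosl (-1.85 ± 0.24), Cd83 (-0.73 ± 0.18) and Vsir, the gene of VISTA (-0.44 ± 0.15). Cd83 lay between the monocyte types, with 1.05 against Ly6C+ and -2.51 against CD43+ monocytes. Neither Vsir nor Cd83 passed without LysoDC replicate 1, which left 1 member lower, and over all alternatives their adjusted p reached 0.208 and 0.0682.

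MHC class I presentation was 18 higher and 1 lower of 24 (median 0.70). Higher members included chaperones that load class I molecules in the endoplasmic reticulum, among them Canx, with Pdia3 higher by 1.09 ± 0.13 and Calr by 1.15 ± 0.15. H2-Q7, a non-classical class I gene, was at 475 and 657 CPM in LysoDCs, 66.0 and 39.6 in Ly6C+ and 172 and 105 in CD43+ monocytes, and reads of its close copies in the Q region may be counted with it. Cd1d1, which presents lipids, was lower (-4.16 ± 0.58), with 8 and 0 UMIs in LysoDCs. Without TMM scaling 13 members were higher.

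Genes for the uptake of dying cells and lipoproteins were 18 lower and 13 higher of 35 (median -0.56), beside 27.4% and 29.9% of all tested genes. Axl, a relative of Mertk, stood at 69.7 and 82.3 CPM in LysoDCs, 40.0 and 20.8 in Ly6C+ and 7.89 and 5.01 in CD43+ monocytes. Abca1, a cholesterol exporter, was at 66.2 and 95.7 CPM in LysoDCs, 7.28 and 6.93 in Ly6C+ and 24.1 and 41.98 in CD43+ monocytes, Fabp5 was higher by 3.08 ± 0.17 and Scarb2 by 1.56 ± 0.11. Scarb1, for a lipoprotein receptor, was lower, at 2.84 and 6.01 CPM in LysoDCs, 60.2 and 83.3 in Ly6C+ and 106 and 111 in CD43+ monocytes, as were Lrp1 (above), Dock2 (-1.65 ± 0.13) and Pltp (-1.40 ± 0.12). Without the dataset 1 monocytes, 6 members were higher. Lysosomal genes were 22 higher and 5 lower of 43 (median 0.44), and 20 and 8 without TMM scaling. Ctsz, a cathepsin, was at 4179 and 4314 CPM in LysoDCs, 864 and 742 in Ly6C+ and 764 and 539.6 in CD43+ monocytes, and Tpp1 and Atp6ap2, a subunit of the proton pump, were higher by 2.14 ± 0.12 and 2.43 ± 0.12. Gusb was lower (-0.66 ± 0.13), and so were Lgmn (above) and Lamp2. Ctse had 3 and 0 UMIs in LysoDCs, and Ly6C+ monocytes held 44.4 times as much (95% counting interval 13.8 to 228).

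Cell division was the list with the largest share of higher genes, 45 of 54, with 4 lower (median 2.82). Mki67, the standard proliferation marker, stood at 96.5 and 99.8 CPM in LysoDCs, 9.95 and 3.66 in Ly6C+ and 8.30 and 1.54 in CD43+ monocytes and Top2a at 51.7 and 51.9 CPM in LysoDCs, 4.37 and 0.962 in Ly6C+ and 16.2 and 7.70 in CD43+ monocytes. Tpx2, for a spindle protein, had 18.9 and 19.5 CPM against 0, 1, 2 and 4 UMIs in the monocyte sums. Bub1b and Cdca8, of the spindle checkpoint and the chromosomal passenger complex, were higher by 3.75 ± 0.23 and 3.24 ± 0.21, and Ube2c by 3.44 ± 0.24. Ccnd1, for a cyclin of G1, was abundant at 576 and 612 CPM in LysoDCs, 32.5 and 7.503 in Ly6C+ and 36.1 and 15.4 in CD43+ monocytes, while Ccnd3, a related cyclin, was lower at 39.9 and 29.2 CPM in LysoDCs, 199.996 and 169 in Ly6C+ and 286 and 248 in CD43+ monocytes. Ccnd2 was higher by 2.98 ± 0.60. Cdkn1b and Cdkn2d, inhibitors of cyclin kinases, were lower (-1.46 ± 0.13 and -1.76 ± 0.18), and so was Kif23 (-0.92 ± 0.16). Pcna, which is needed for DNA replication, was at 33.5 and 39.2 CPM in LysoDCs, 26.5 and 46.0 in Ly6C+ and 49.0 and 67.8 in CD43+ monocytes and did not pass. Beside this list, 14 B cell markers summed to 511 and 343 CPM in LysoDCs and 201 to 291 CPM in the monocyte sums, and their part in the cell division genes was not tested.

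Cholesterol synthesis was 18 higher and 1 lower of 28 (median 1.14), and none was lower in any fit without 1 sum. Dhcr7, which carries out a late step of the pathway, was higher, at 112 and 116 CPM in LysoDCs, 10.4 and 6.54 in Ly6C+ and 9.13 and 6.55 in CD43+ monocytes. Sc5d and Tm7sf2 were higher by 2.29 ± 0.15 and 2.70 ± 0.20. Endoplasmic reticulum folding and secretion was 21 higher and 4 lower of 31 (median 0.69). Sec61b, of the translocation channel, was at 3329 and 3445 CPM in LysoDCs, 806 and 775 in Ly6C+ and 512 and 362 in CD43+ monocytes. Herpud1, Creld2 and Hsp90b1 were higher by 1.34 ± 0.11, 1.52 ± 0.14 and 1.18 ± 0.12. The stress sensors and their factors were lower instead, Atf6 (-1.54 ± 0.12), Xbp1 (-0.69 ± 0.13), Atf4 (-0.52 ± 0.12) and Ern1 (-0.56 ± 0.20). Neither Ern1 nor Atf4 passed without LysoDC replicate 1, which left 2 members lower, and over all alternatives their adjusted p reached 0.23 and 0.0707.

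Iron and redox genes were 18 higher and 10 lower of 38, beside 29.9% higher and 27.4% lower of all tested genes. Fth1, for the heavy chain of the iron store ferritin, was at 36603 and 26005 CPM in LysoDCs, 4892 and 3451 in Ly6C+ and 5472 and 4253 in CD43+ monocytes, and Ncoa4, for the receptor that delivers ferritin to lysosomes, at 76.9 and 138 CPM in LysoDCs, 20.4 and 24.6 in Ly6C+ and 24.1 and 23.9 in CD43+ monocytes. Prdx6 was higher by 2.70 ± 0.11 and the metallothionein gene Mt2 by 4.32 ± 0.29. Cat, for catalase, was lower, at 18.2 and 16.2 CPM in LysoDCs, 42.5 and 35.4 in Ly6C+ and 91.7 and 129 in CD43+ monocytes. Prdx4 was lower (-1.68 ± 0.17). Steap3, a ferrireductase, had 2 and 0 UMIs in LysoDCs against 63 and 61 in Ly6C+ and 4 and 7 in CD43+ monocytes.

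Lipid mediators, nucleotides and retinoids each held members that passed in both directions. Eicosanoid genes were 11 higher and 6 lower of 21. Hpgds, which makes prostaglandin D2, stood at 110.4 and 129 CPM in LysoDCs, 9.47 and 3.27 in Ly6C+ and 7.06 and 7.32 in CD43+ monocytes and Hpgd, which breaks prostaglandins down, at 7.72 and 2.73 CPM in LysoDCs, 284 and 224 in Ly6C+ and 584 and 322 in CD43+ monocytes. Alox5ap, needed for leukotriene synthesis, was at 13.3 and 3.82 CPM in LysoDCs, 1198 and 1179 in Ly6C+ and 629 and 568 in CD43+ monocytes. Pla2g4a, which frees arachidonic acid, was higher by 2.21 ± 0.17, Ptafr by 2.25 ± 0.18 and Tbxas1 by 2.40 ± 0.18, while the prostaglandin receptors Ptger4 and Ptgir were lower (-3.25 ± 0.23 and -2.13 ± 0.19). Without LysoDC replicate 1, and without Ly6C+ replicate 1, 7 of the list were higher. Purinergic genes were 13 higher and 5 lower of 22, beside 29.9% higher and 27.4% lower of all tested genes. P2rx4 stood at 191 and 207 CPM in LysoDCs, 98.3 and 89.1 in Ly6C+ and 41.9 and 37.0 in CD43+ monocytes, Cd38 was higher by 4.23 ± 0.29 and Ada, for adenosine deaminase, by 4.06 ± 0.25. Dpp4, for a surface peptidase, was at 269.6 and 248.8 CPM in LysoDCs, 36.4 and 15.2 in Ly6C+ and 27.4 and 13.9 in CD43+ monocytes. P2ry6 was lower at 4.45 and 13.5 CPM in LysoDCs, 103 and 97.2 in Ly6C+ and 69.3 and 66.6 in CD43+ monocytes, and did not pass without the dataset 1 monocytes (-2.92, adjusted p = 0.0917). Adora2a and Adora2b were lower (-4.50 ± 0.33 for Adora2b), as were P2ry1, with 3 and 0 UMIs in LysoDCs, and P2rx1, with 1 and 1. With both monocyte types in 1 sum, 8 members were lower. Without LysoDC replicate 1, 3 members were lower, and P2rx1 did not pass (-3.19, adjusted p = 0.0632). All 16 tested genes of retinoid, vitamin D and aryl hydrocarbon metabolism passed, 9 higher and 7 lower, where 57.3% of all tested genes passed. The retinoic acid receptors were split, with Rarb at 25.6 and 26.2 CPM in LysoDCs, 1.94 and 0.192 in Ly6C+ and 3.74 and 1.54 in CD43+ monocytes, Rara at 7.29 and 5.19 CPM in LysoDCs, 184 and 143 in Ly6C+ and 247 and 158 in CD43+ monocytes and Rarg lower (-3.64 ± 0.19). Ahrr, a repressor and target of the aryl hydrocarbon receptor, was at 61.5 and 57.2 CPM in LysoDCs, 3.40 and 1.92 in Ly6C+ and 5.81 and 3.08 in CD43+ monocytes. Rdh11 and Rdh12, retinol dehydrogenases, were higher by 1.60 ± 0.18 and 3.13 ± 0.36, and Cyp27a1 and Aldh2 lower (-4.99 ± 0.20 and -1.06 ± 0.16). Without TMM scaling the split was 7 and 7.

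Because only the patches were digested, genes known to respond to tissue dissociation were listed too. Of 29 tested, 12 were lower in LysoDCs and 9 higher (median -0.23), beside 27.4% lower and 29.9% higher of all tested genes. Atf3, Ier2, Btg2 and Dusp1 were lower, Ier2 at 76.3 and 71.7 CPM in LysoDCs, 199 and 169 in Ly6C+ and 234 and 225 in CD43+ monocytes. Fosb and Ppp1r15a were higher, by 2.20 ± 0.46 and 1.10 ± 0.26, and overlapped between the groups. Fosb lay at 40.1 and 35.1 CPM in LysoDCs, 35.2 and 23.3 in Ly6C+ and 4.98 and 1.16 in CD43+ monocytes. Its adjusted p reached 0.0922 over the alternatives and that of Ppp1r15a 0.125, so that neither call held in all of them. Hspe1 and Hspa1b, for heat shock proteins, were higher by 1.65 ± 0.15 and 2.57 ± 0.31. Higher genes numbered 2 without LysoDC replicate 1, 4 without CD43+ replicate 2 or without the dataset 1 monocytes, and 5 without either Ly6C+ replicate. Hspa1b did not pass without the dataset 1 monocytes (2.49, adjusted p = 0.0515).

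Some genes set the monocyte types apart and had LysoDCs between them, passing against both in opposite directions. The 6 with the largest smaller difference above Ly6C+ and below CD43+ monocytes were Dusp16, Ets1, Slc12a2, Ltb, Bcl2 and Cd9. Dusp16, a phosphatase of stress kinases, stood at 31.5 and 32.6 CPM in LysoDCs, 3.88 and 5.58 in Ly6C+ and 299 and 435 in CD43+ monocytes, which gave 2.84 against Ly6C+ and -3.20 against CD43+ monocytes. Bcl2, which protects cells from death, was at 35.6 and 37.4 CPM in LysoDCs, 7.04 and 13.7 in Ly6C+ and 208 and 166 in CD43+ monocytes, and Ltb, for lymphotoxin beta, at 40.9 and 33.99 CPM in LysoDCs, 10.7 and 8.85 in Ly6C+ and 314 and 273 in CD43+ monocytes. Ets1 was rare in LysoDCs, at 2.96 and 1.77 CPM, with 3 and 2 UMIs in the Ly6C+ sums. The 6 below Ly6C+ and above CD43+ monocytes were Isg15, Slfn5, Rtp4, Oasl2, C1galt1c1 and Mfsd7a. Isg15, Slfn5, Rtp4 and Oasl2 are known as targets of type I interferon. Isg15 was at 54.8 and 44.5 CPM in LysoDCs, 251 and 172 in Ly6C+ and 14.9 and 8.86 in CD43+ monocytes, and Slfn5 at 47.2 and 53.0 CPM in LysoDCs, 373 and 256 in Ly6C+ and 21.997 and 10.8 in CD43+ monocytes. Isg15 gave -1.99 against Ly6C+ and 2.36 against CD43+ monocytes, and Oasl2 -2.33 and 1.36. Leaving out 1 sum ended a call for 4 of the 12. Over all alternatives the adjusted p reached 0.293 for Ets1, 0.26 for Cd9, 0.218 for Ltb, 0.175 for Slc12a2 and 0.0772 for Mfsd7a against Ly6C+ monocytes, and 0.46 for Cd9 and 0.302 for Mfsd7a against CD43+ monocytes.

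**Figure D4:**
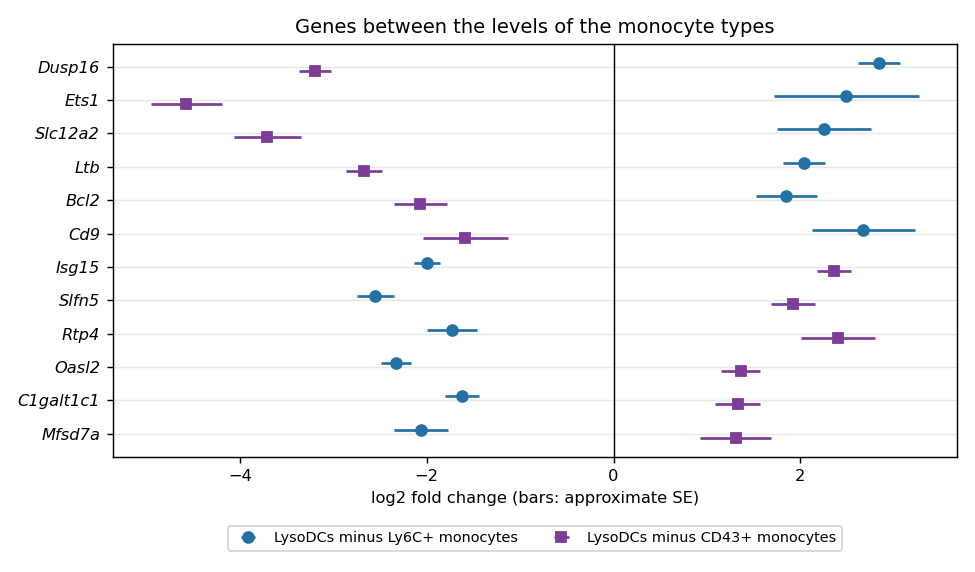
Fitted log2 fold change with its approximate SE (horizontal axis) of LysoDCs against Ly6C+ monocytes (circles) and against CD43+ monocytes (squares) for 12 genes. The upper 6 genes are above Ly6C+ and below CD43+ monocytes, and the lower 6 the reverse. Both comparisons share the LysoDC sums.

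Within LysoDCs of dataset 1, the hashtags allowed the sorted subsets to be set side by side, as 1 sum each and without a test. For the 12 genes named for the largest excess over both monocyte types, the highest subset was 1.04 to 1.46 times the lowest. Adamdec1 stood at 1037, 1034, 1024 and 996 CPM in follicular, immature, intermediate and mature cells. Of 167 named genes that reached 10 CPM in a subset, 103 differed by under 1.5 times and 36 by over 2 times. The widest ranges, a ranking made after the values were seen, came from Siglech, Cxcl14, Il12b, Clec4a4 and Ltb. Il12b stood at 2.98, 12.6, 39.4 and 45.9 CPM. Ltb was at 18.4, 16.1, 31.6 and 122 CPM and Cd9 at 16.8, 24.8, 65.0 and 109 CPM, against 314 and 203 CPM in CD43+ monocytes of dataset 1. Siglech was highest in follicular cells, at 16.3, 1.59, 0.562 and 1.96 CPM, and Itga9 decreased in this order, at 80.2, 40.1, 23.2 and 13.6 CPM. Alox5ap, Hpgd and Pou2f2, which were far lower in LysoDCs than in monocytes, were highest in mature cells, Alox5ap at 13.3, 5.58, 8.64 and 35.3 CPM. H2-Eb2 stood at 27.0, 49.4, 64.6 and 87.4 CPM. Exact Poisson 95% intervals of the follicular and mature subsets did not overlap for Il12b, Ltb, Cd9, Siglech, Itga9, Alox5ap, Hpgd, Pou2f2 and H2-Eb2, but they cover counting error only.

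**Figure D5:**
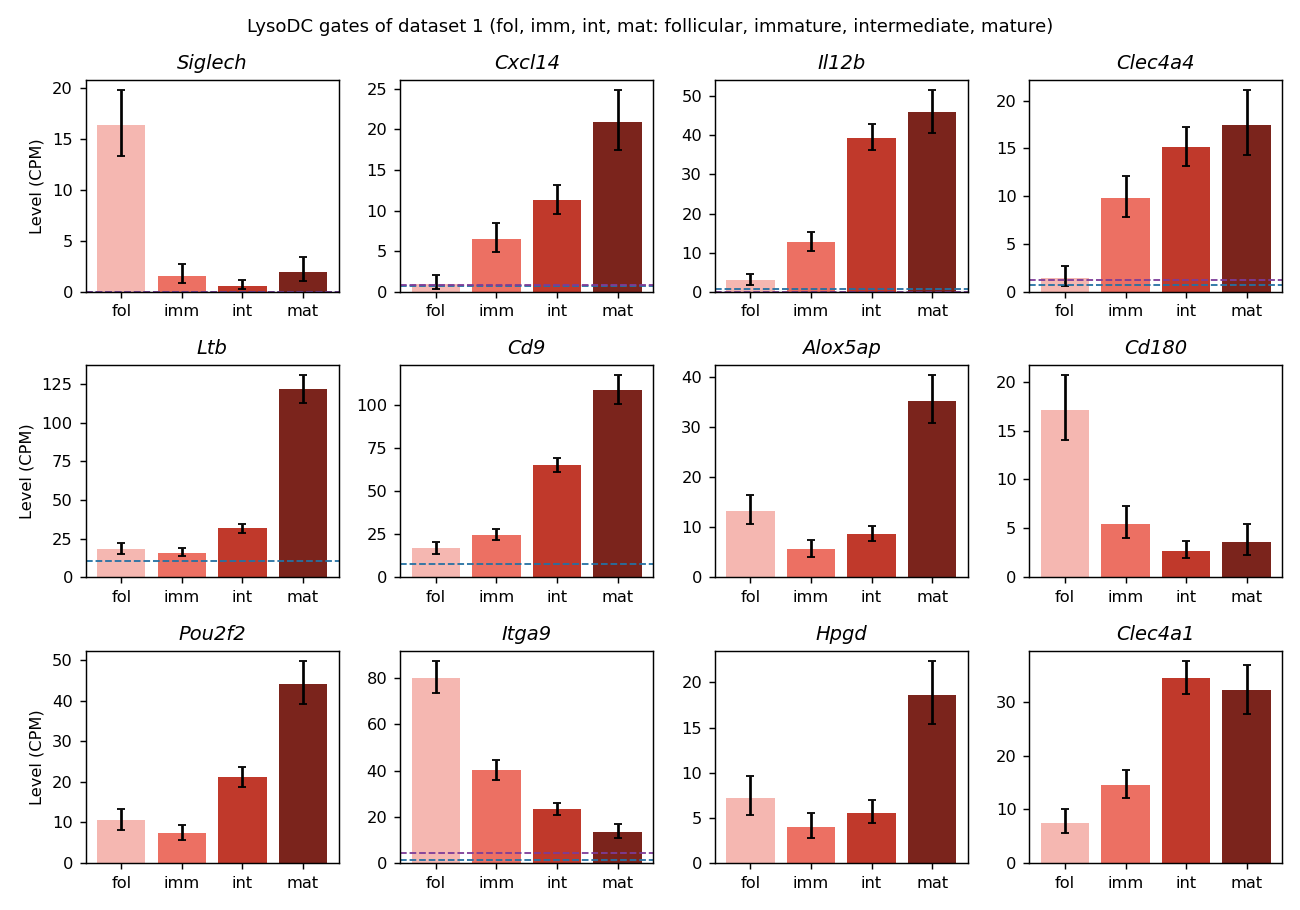
Level in CPM (vertical axis, from 0) of 12 named genes in the follicular, immature, intermediate and mature LysoDCs of dataset 1, with exact Poisson 95% intervals as error bars. Dashed lines give Ly6C+ (blue) and CD43+ (violet) monocytes of dataset 1 where they fit the axis. Il12b runs from 2.98 CPM in follicular to 45.9 CPM in mature cells, and Siglech is highest in follicular cells.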

How the data were processed

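The data are 3' single-cell libraries with hashtags from 2 datasets, each 1 matrix. The deposited values are UMI counts per gene and cell with no normalization, made with Cell Ranger 6.0.1 per the file headers and 2.0.0 per the submitters' processing notes, on mm10. Hashtags were called with HTODemux in Seurat 5.3.0 (positive quantile 0.99). Barcodes with several hashtags were left out as doublets (2422 in dataset 1 and 4572 in dataset 2), and no other doublet caller was run. Single cells with at least 1000 gene UMIs, 500 genes and at most 10% mitochondrial UMIs were summed per population and dataset.

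The 8 sums, with CD115hi Ly6C-CD43- blood cells included to share the estimate of spread, were fitted in edgeR 4.0.16 (quasi-likelihood, TMM, filterByExpr, dataset as a block). CPM are counts per 1000000 UMIs without the TMM factor. The SE is the size of the fold change over the square root of F. In all pairs of populations, deviations of the sums from the same dataset correlated by 0.189 to 0.382 across genes, and the pairing is by dataset. On simulated counts for LysoDCs against blood monocytes over 11054 genes, the fit recovered 67% of changes of 1 and 95% of changes of 2 on the log2 scale, against Ly6C+ monocytes 62% and 93%, and against CD43+ monocytes 45% and 90%. False calls numbered 8, 12 and 10 in that order. Only 100 genes were changed at each size, in LysoDCs alone. All genes had the same spread, with no dataset effect and no difference among the other populations. Real data differ in each of these, so the rates do not give the power of the real comparisons.

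Named genes were 12 in each direction with the largest smaller fold change against both monocyte types, 6 in each direction between them, and up to 4 per list and direction by adjusted p. Mitochondrial, ribosomal protein, haemoglobin, immunoglobulin, predicted and sort-gate genes, and genes without a position, were not candidates for this rule. Some genes that the rule names are not reported here. A few list members outside this rule were named for their role after their values were seen. Members and lists were chosen with earlier results of these data known.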

Additional observations from a re-analysis of the deposited data

How the results depend on the processing

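The counts of higher and lower genes in the 3 comparisons stayed within 1.5 times of the reported ones in each alternative run, and no named gene changed direction. Leaving out 1 sum in turn gave 2394 to 3267 higher and 2242 to 2845 lower genes against both monocyte types, 2119 to 3050 and 2013 to 2870 against Ly6C+, and 2294 to 3278 and 2187 to 3042 against CD43+ monocytes. Without the replicate block for dataset, 3026 genes were higher and 2706 lower. DESeq2 gave 3045 and 2783. Of 4538 recomputed values of named genes, 103 no longer passed. These came from 31 pairs of a gene and a comparison. Keeping only genes with at least 10 CPM in 2 sums left 28 cell division genes and 3 chemokines higher and 5 cytokines lower, with fewer genes tested. The fit without the dataset 1 monocyte sums was chosen after seeing the data. Of 72 thinned shares of LysoDCs with a UMI, 37 moved outside their 95% interval at 1000 UMIs a cell. Each population had 2 pools, and CD43+ sums, the shallowest, limit what can be detected for genes of few UMIs.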
